A study of Mus musculus with 72 samples.

Results

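The soleus (SOL), a slow postural muscle of the hind limb, was compared between muscle-specific Bmal1 knockout mice (mKO) and Cre-negative littermates (Ctrl) at Zeitgeber time 8 (ZT8), that is 8 h into the light phase. The 6 arrays were chosen by muscle, genotype and time in their titles, 3 mKO and 3 Ctrl (replicates A, B and C of each), out of 72 arrays in the series. All were male C57BL/6 mice aged 5 months on standard chow at constant temperature, in a cycle of 12 h of light from ZT0 and 12 h of dark, and each array came from a separate animal. The mKO mice carried floxed Bmal1 and a Cre recombinase driven by the Mlc1f promoter, a fast myosin light chain promoter active in muscle fibres. Since Ctrl mice carried no Cre, what Cre does on its own and what the lost Bmal1 does cannot be told apart. The rest of the series holds SOL at 5 other times (30 arrays, other animals) and a fast muscle of the same animals, the tibialis anterior (TA), at each time.

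Bmal1 is the gene symbol Arntl in these arrays. Its protein pairs with CLOCK, or with the CLOCK-like protein NPAS2, and the pair binds E-box elements in DNA and activates transcription. Among its targets are the Period, Cryptochrome, Rev-erb (Nr1d1, Nr1d2), Ciart and Bhlhe genes, whose products act back as repressors, and the PAR bZIP genes Dbp, Tef and Hlf, whose products bind D-box elements that NFIL3 also binds as a repressor. REV-ERB proteins in turn repress Arntl, Clock, Npas2 and Nfil3. In muscle the clock is known for timing genes of glucose uptake, lipid use and fibre structure.

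Values were log2 signals, so a difference of 1 is a 2-fold difference, and 20239 named genes were tested. The medians of the 72 arrays lay between 6.69 and 6.85, the 6 arrays correlated with each other at r from 0.991 to 0.995 over all genes, and the median SD between animals was 0.11 in both mKO and Ctrl. In both genotypes replicates A and B had identification numbers of the series BM3 and replicate C of the series BM2*, whose meaning the labels do not state. Of the other times used below, ZT12 and ZT16 had the series split unevenly between the genotypes. At ZT20 all mKO animals were of series BM2 and all Ctrl animals of BM3, so genotype and series cannot be told apart there. The muscle label held: 7 markers of slow muscle (Myh7, Tnni1, Tnnt1, Tnnc1, Myl2, Myl3 and Atp2a2) were each higher in SOL than in TA in 6 of 6 animals, by 3.98 to 6.45 log2 units. Whole muscle was measured, so fewer cells of a type and less RNA per cell cannot be told apart. Cells other than muscle fibres are not the target of the Cre, and the loss of Bmal1 was not measured by cell or fibre type.

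At ZT8 the SOL of mKO differed from that of Ctrl in 174 genes, 0.860% of those tested, with 106 higher (0.524%) and 68 lower (0.336%) in mKO. A gene was called when its p from limma, adjusted by Benjamini and Hochberg over the 20239 genes, was under 0.05. The median size of a called difference was 0.57, and 22 genes passed 2-fold, 18 higher and 4 lower. Of the 174 called genes 155 lay above the median level of all genes in SOL. The 3 mKO animals did not overlap with the 3 Ctrl animals for 173 of the 174, the exception being Mpp3, while over all genes tested 8.37% had every mKO value above every Ctrl value and 10.5% every mKO value below. The genes were called on these same animals, so the lack of overlap is no separate support. The count changed with 1 animal left out, which also leaves fewer animals in a group. It was 64 higher and 43 lower without mKO A, 83 and 76 without mKO B, and 75 and 45 without mKO C. Without Ctrl A it was 80 and 64, without Ctrl B 59 and 48, and without Ctrl C 70 and 53. The cause of these changes was not tested. With 3 animals a group an exact permutation test of a single gene cannot go below p = 0.1.

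Of 16 core clock genes measured out of 17 listed, 7 were called, Clock and Npas2 higher and Per2, Per3, Nr1d2, Ciart and Bhlhe41 lower. Of 11 output genes 5 were called, Nfil3 higher and Dbp, Tef, Usp2 and Coq10b lower. Over all genes tested 0.860% were called. The median change was -0.29 over the core clock genes and -0.35 over the output genes, against -0.02 over all genes.

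The targeted gene itself was not called at this time. Arntl read 7.75, 7.55 and 7.76 in mKO, against 7.53, 7.15 and 7.18 in Ctrl. The groups did not overlap, and the 0.40 ± 0.15 (SE) difference had an adjusted p of 0.283. The position of its probes against the floxed exon is not stated in the sources used here, and the level of Arntl is therefore no check on the deletion. The partners of BMAL1 were both higher. Clock read 9.79, 9.78 and 9.92 in mKO, against 9.22, 9.07 and 9.21 in Ctrl, a rise of 0.67 ± 0.07 (SE, adjusted p = 1.61e-06). Npas2 read 7.90, 7.45 and 7.83 in mKO, against 6.67, 6.54 and 6.35 in Ctrl, a rise of 1.21 ± 0.15 (adjusted p = 8.81e-06). The lowest mKO animal stood above the highest Ctrl animal for both genes.

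The promoters of 5 called clock and output genes held an E-box (CACGTG, a palindrome) or a D-box (TTATGTAA, searched on both strands) in the window of 250 bases before to 50 bases after the start, and are shown because these elements bind the factors named above. Sequences are from RefSeq on GRCm38.p6, written 5′ to 3′ on the gene's strand with the motif letters in capitals. They are Per3 (chr4:151044616-151044915, minus strand), Ciart (chr3:95882179-95882478, minus), Bhlhe41 (chr6:145865371-145865670, minus), Tef (chr15:81802423-81802722, plus, the entry with a motif of 2 entries) and Coq10b (chr1:55052520-55052819, plus).
Per3: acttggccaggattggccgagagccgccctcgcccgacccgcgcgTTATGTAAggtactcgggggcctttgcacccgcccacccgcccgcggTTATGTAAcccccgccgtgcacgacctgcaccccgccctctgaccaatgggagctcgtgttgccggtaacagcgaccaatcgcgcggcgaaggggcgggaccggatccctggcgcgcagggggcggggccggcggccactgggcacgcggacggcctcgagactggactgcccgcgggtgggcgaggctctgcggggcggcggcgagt
Ciart: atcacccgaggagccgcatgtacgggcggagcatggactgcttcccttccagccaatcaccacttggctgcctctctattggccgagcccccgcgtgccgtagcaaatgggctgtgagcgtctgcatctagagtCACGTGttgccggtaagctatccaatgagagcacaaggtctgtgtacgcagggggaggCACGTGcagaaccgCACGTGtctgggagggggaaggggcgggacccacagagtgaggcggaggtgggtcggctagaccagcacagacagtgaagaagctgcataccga
Bhlhe41: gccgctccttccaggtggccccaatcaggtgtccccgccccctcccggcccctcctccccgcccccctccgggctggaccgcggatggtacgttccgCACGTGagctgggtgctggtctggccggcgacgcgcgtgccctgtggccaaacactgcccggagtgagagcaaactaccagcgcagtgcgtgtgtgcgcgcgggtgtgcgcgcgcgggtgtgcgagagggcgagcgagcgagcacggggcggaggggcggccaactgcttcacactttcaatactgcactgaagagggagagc
Tef: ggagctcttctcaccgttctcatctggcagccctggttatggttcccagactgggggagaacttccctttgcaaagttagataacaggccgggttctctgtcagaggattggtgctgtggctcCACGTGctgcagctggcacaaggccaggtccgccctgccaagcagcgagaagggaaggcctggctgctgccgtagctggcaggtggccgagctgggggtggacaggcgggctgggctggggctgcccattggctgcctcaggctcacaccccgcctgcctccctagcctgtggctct
Coq10b: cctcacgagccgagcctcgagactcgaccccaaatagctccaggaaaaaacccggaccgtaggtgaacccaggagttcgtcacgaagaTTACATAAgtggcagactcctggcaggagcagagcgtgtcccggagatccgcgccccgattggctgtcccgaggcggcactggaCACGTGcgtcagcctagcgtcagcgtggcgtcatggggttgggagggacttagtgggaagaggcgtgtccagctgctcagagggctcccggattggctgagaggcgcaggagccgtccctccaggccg

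Ciart holds 3 E-boxes within 116 bases of its start, Per3 holds 2 D-boxes, and Coq10b holds a motif of each kind, its D-box on the opposite strand. The E-box was present in 4 of 11 called clock and output genes with a promoter entry, and the D-box in 2 of 11. Among all tested genes with an entry, 9.47% held the E-box and 0.958% the D-box. Among genes called at ZT8 the E-box was in 11 of 56 lower genes (19.6%) and in 7 of 82 higher genes (8.54%), and the D-box was in 3 of 56 and 0 of 82. A match is a description of these letters and was not tested as a site.

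Of 10 repressor genes of the loop 5 were called, all lower in mKO, where 0.336% of all genes were called lower. Nr1d2, which encodes REV-ERB beta, read 10.36, 10.59 and 10.29 in mKO, against 11.19, 11.26 and 11.18 in Ctrl, and fell by 0.80 ± 0.11 (SE, adjusted p = 5.06e-05). Per3, a Period gene whose promoter carries the 2 D-boxes, read 7.94, 8.47 and 7.64 in mKO, against 8.87, 8.79 and 8.88 in Ctrl, and fell by 0.83 ± 0.14 (adjusted p = 0.000639). Ciart, also called Chrono and an interactor of BMAL1, read 7.63, 8.02 and 6.56 in mKO, against 8.16, 8.58 and 8.84 in Ctrl, and fell by 1.12 ± 0.25 (adjusted p = 0.0182). The 3 Ctrl animals lay close together for Nr1d2 and Per3, and the mKO animals were spread more widely. Bhlhe41, an E-box binding repressor also called Dec2, read 8.05, 8.31 and 7.40 in mKO, against 8.97, 8.63 and 8.99 in Ctrl, and fell by 0.94 ± 0.21 (adjusted p = 0.017). Per2 read 7.44, 7.69 and 6.92 in mKO, against 7.79, 7.92 and 8.02 in Ctrl, and fell by 0.56 ± 0.14 (adjusted p = 0.047). Per2 sat closest to the threshold of the called clock genes, and mKO B lay near Ctrl A.

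Among the outputs Dbp, a D-box activator, had the largest fall. Dbp read 9.56, 9.86 and 9.09 in mKO, against 10.58, 10.47 and 10.41 in Ctrl, and fell by 0.98 ± 0.19 (SE, adjusted p = 0.00297). Nfil3, the repressor that competes for the same D-box, moved the other way, with 7.94, 7.88 and 7.68 in mKO, against 6.55, 6.27 and 7.05 in Ctrl, a rise of 1.21 ± 0.18 (adjusted p = 0.000114). Both groups stood apart from each other for each of these genes. Coq10b, a coenzyme Q binding protein of mitochondria, read 8.16, 8.46 and 7.98 in mKO, against 8.96, 8.93 and 9.0 in Ctrl, and fell by 0.77 ± 0.12 (adjusted p = 0.000298). Tef fell by 0.60 ± 0.09 and Usp2, a ubiquitin protease, by 0.46 ± 0.09.

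**Figure D1:**
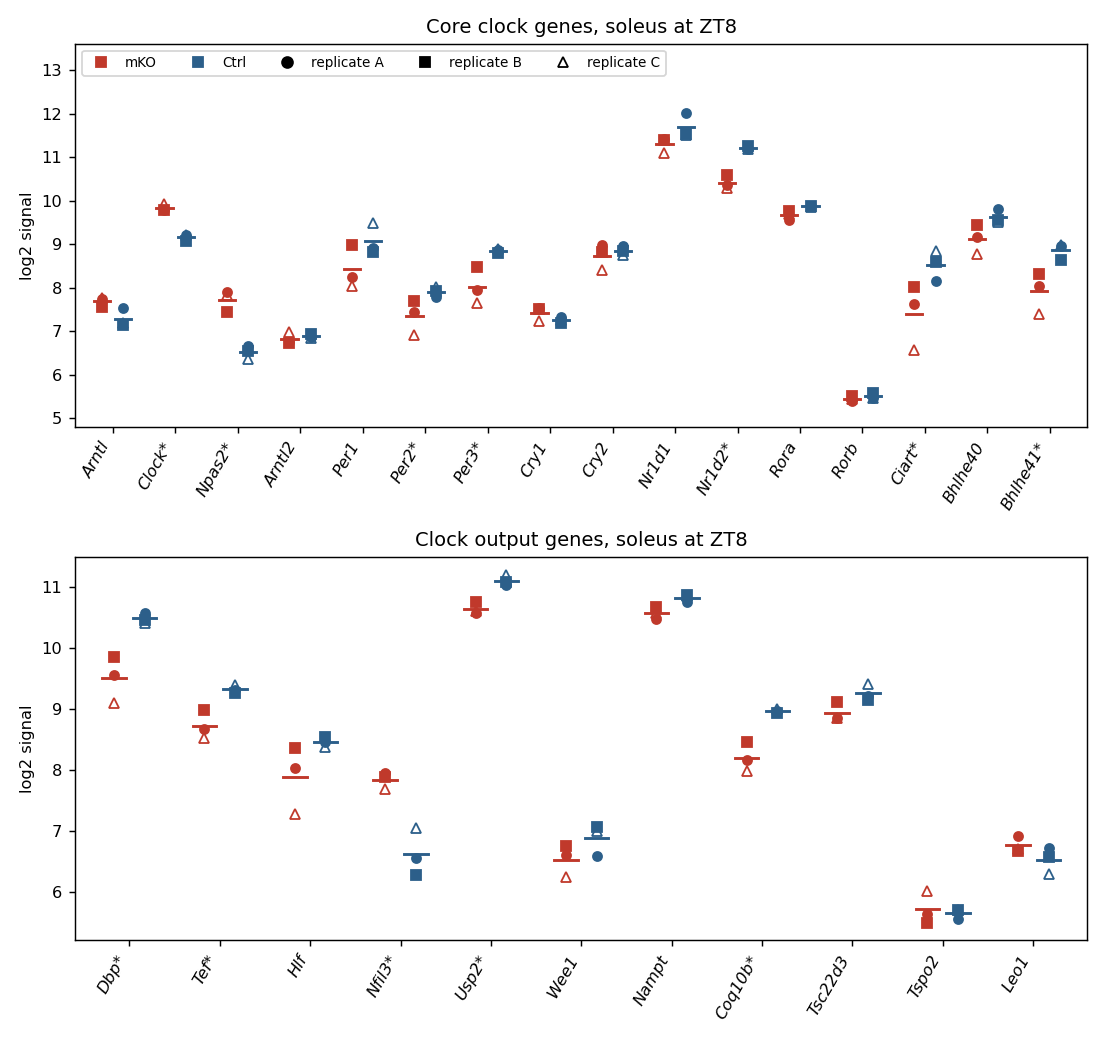
Log2 signal of 16 core clock genes (top) and 11 clock output genes (bottom) in SOL at ZT8, with mKO in red to the left of Ctrl in blue; circles, squares and triangles are replicates A, B and C, bars are means, and an asterisk marks a gene called at an adjusted p under 0.05. The mKO animals of Per2, Per3, Ciart, Bhlhe41 and Dbp are spread more than the Ctrl animals, with replicate C lowest and B highest.

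The 3 mKO animals did not show these falls to the same degree. Of the 9 clock and output genes called lower, mKO C had the lowest mKO value in 8 and mKO A in 1, and mKO B had the highest in 9. Over all tested genes mKO C was the lowest of the mKO animals in 34.4%, and mKO B was the highest in 30.2%. Among all 68 genes called lower, the median difference from the Ctrl mean was -0.69 in mKO A, -0.42 in mKO B and -0.65 in mKO C. The smaller fall in mKO B was therefore seen over the called falls as a set. The 9 genes were read in the same 3 animals and are not independent. Without mKO C, the adjusted p of Dbp, Ciart, Bhlhe41 and Per2 passed 0.05, with changes of -0.77, -0.70, -0.68 and -0.34. Within series BM3, which leaves out replicate C of both genotypes, Per3 changed by -0.62, Dbp by -0.81, Bhlhe41 by -0.62, Ciart by -0.55, Per2 by -0.29 and Usp2 by -0.40, and none of these 6 was called. Clock, Npas2, Nr1d2, Nfil3 and Coq10b were called under each of 15 alternative settings, the ones that leave out an animal included. In a fit of the 6 arrays alone Per2, Per3, Ciart, Bhlhe41, Dbp, Tef and Usp2 were not called. Usp2 was not called without mKO A or without Ctrl C, with changes of -0.43 and -0.41. Ciart and Per2 were also not called without Ctrl B or without Ctrl C, Per2 not without mKO A or Ctrl A, and Bhlhe41 not without Ctrl A or Ctrl C.

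Of the 27 core and output genes measured, 15 were not called. Nr1d1, which encodes REV-ERB alpha, read 11.41, 11.39 and 11.10 in mKO, against 12.01, 11.52 and 11.51 in Ctrl, a difference of -0.38 ± 0.23 (SE, adjusted p = 0.564). Hlf, the third PAR bZIP gene, differed by -0.57 ± 0.15 (adjusted p = 0.0728), and Per1 by -0.65 ± 0.22 (adjusted p = 0.24). The Cryptochromes differed by 0.16 (Cry1) and -0.12 (Cry2). Rora, the activator that competes with REV-ERB, differed by -0.20, Bhlhe40 by -0.50, Wee1, a mitotic kinase, by -0.35, Nampt, an enzyme of NAD salvage, by -0.25, and Tsc22d3 by -0.32. Arntl2 (-0.06), Rorb (-0.05), Tspo2 (0.06) and Leo1 (0.24) completed the lists.

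ZT8 lies near the daily extreme of several of these genes in Ctrl, given here as means of 3 animals with no test of rhythm. In order of time from ZT0 to ZT20, Ciart averaged 6.01, 6.16, 7.40, 7.30, 6.12 and 5.93 in mKO, against 5.97, 6.27, 8.53, 8.32, 6.58 and 6.16 in Ctrl. ZT8 was its highest time in both, and the genotypes were farthest apart at ZT8 and ZT12, where Ctrl was high. Nfil3, whose difference has the opposite sign, had its lowest mean at ZT8 in both genotypes, 7.84 in mKO and 6.62 in Ctrl. Dbp, Nr1d1, Bhlhe40 and Bhlhe41 also had their highest Ctrl mean at ZT8. Arntl differed by -0.67 at ZT0 and -0.51 at ZT4, by 0.78 at ZT12, 0.55 at ZT16 and 0.01 at ZT20, so ZT8 fell after the sign of its difference had turned, and it was called at ZT0 and ZT12. Taken singly, 112 genes (0.553%) were called at ZT0, 89 (0.440%) at ZT4, 152 (0.751%) at ZT12, 191 (0.944%) at ZT16 and 211 (1.04%) at ZT20. The count at ZT20 cannot be told apart from a difference between identification series. The Arntl means of mKO spanned 7.33 to 8.44 over the day and those of Ctrl 6.56 to 9.11.

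**Figure D2:**
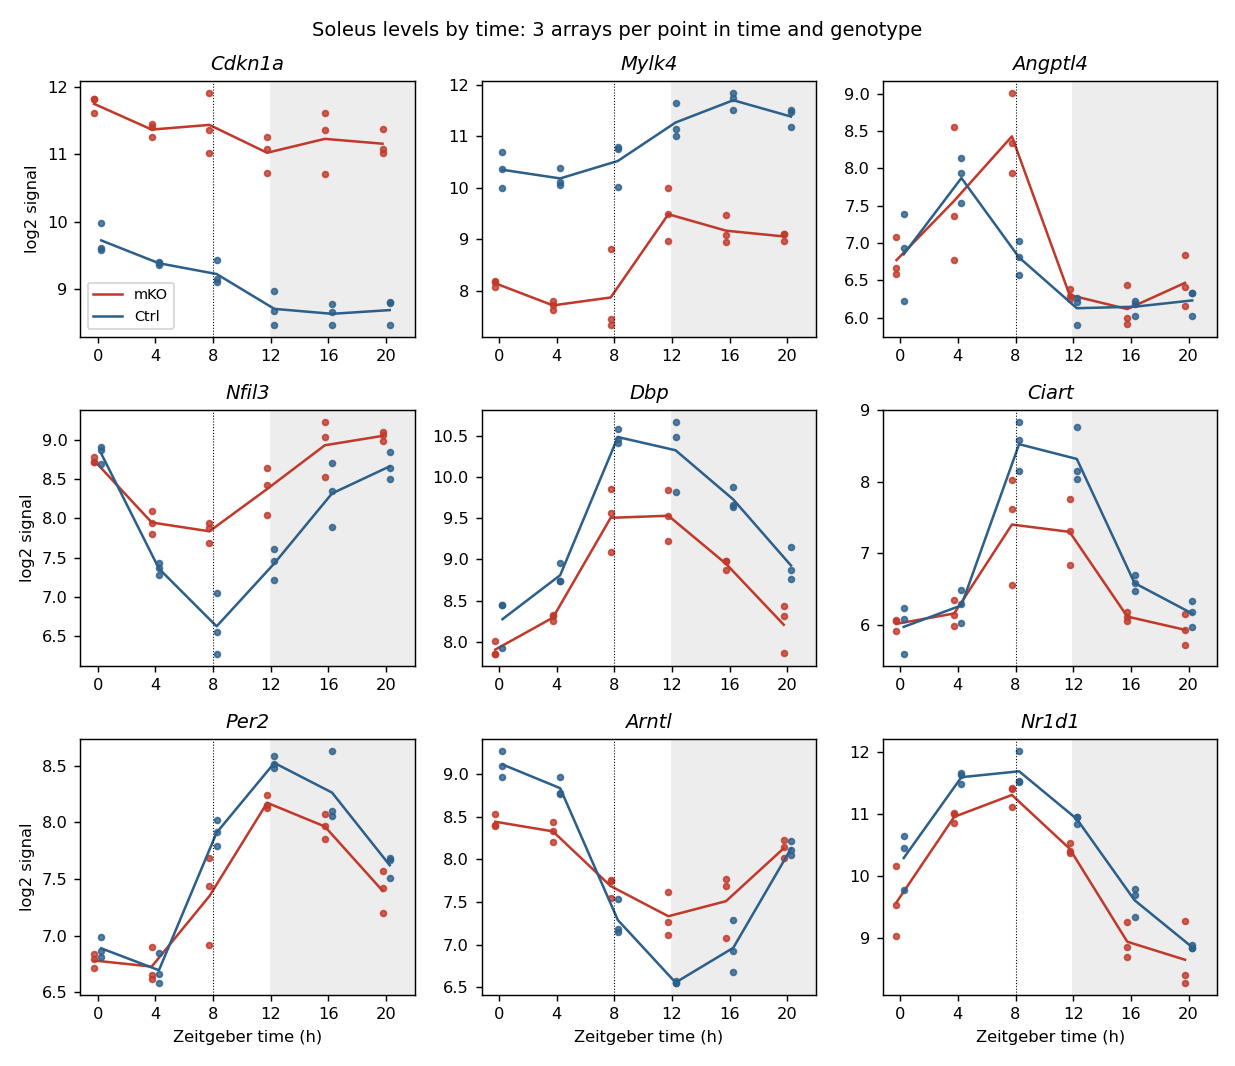
Log2 signal in SOL against Zeitgeber time (h) for 9 genes, mKO in red and Ctrl in blue; points are animals, lines join the means of 3 animals, grey marks the dark phase and the dotted line ZT8. Cdkn1a and Mylk4 are apart at each time, Angptl4 at ZT8, and the clock genes differ most around the Ctrl peak or trough.

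Outside the clock, the largest rise was that of Cdkn1a, which encodes the cyclin-dependent kinase inhibitor p21. Cdkn1a read 11.36, 11.02 and 11.91 in mKO, against 9.11, 9.43 and 9.15 in Ctrl, a rise of 2.20 ± 0.19 (SE), or 4.61-fold, with an adjusted p of 3.02e-08. It was the only called gene among 27 measured of the cell cycle and p53 list, where 0.860% of all genes were called. Angptl4, a secreted inhibitor of lipoprotein lipase, read 8.34, 7.93 and 9.01 in mKO, against 7.02, 6.58 and 6.82 in Ctrl, a rise of 1.62 ± 0.30, or 3.08-fold (adjusted p = 0.00215). Within series BM3 its change was 1.34, with an adjusted p of 0.124. Tmem171, a transmembrane protein, read 8.86, 8.56 and 8.26 in mKO, against 7.16, 7.02 and 6.94 in Ctrl, a rise of 1.52 ± 0.16 (adjusted p = 8.96e-07). For these 3 genes the lowest mKO animal stood above the highest Ctrl animal.

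The other large rises were of genes with different roles. Kcng4, a modifying subunit of voltage-gated potassium channels, read 7.85, 8.34 and 8.24 in mKO, against 6.92, 6.72 and 6.51 in Ctrl, a rise of 1.43 ± 0.15 (SE, adjusted p = 8.96e-07). Calb1, the calcium buffer calbindin, read 5.88, 5.02 and 6.38 in mKO, against 4.31, 4.61 and 4.47 in Ctrl, a rise of 1.30 ± 0.24 (adjusted p = 0.00225). It was low in the range of all genes, with mKO B close to Ctrl, and it was not called without mKO C, at a change of 0.99. Slc1a1, a glutamate transporter, read 8.85, 8.67 and 9.20 in mKO, against 7.42, 7.67 and 7.95 in Ctrl, a rise of 1.23 ± 0.19 (adjusted p = 0.00016). Mrln, the micropeptide myoregulin that inhibits the calcium pump SERCA, read 9.70, 9.89 and 9.61 in mKO, against 8.71, 8.69 and 8.54 in Ctrl, a rise of 1.09 ± 0.13 (adjusted p = 2.5e-06). Actc1, the actin of heart and of developing muscle, read 10.99, 11.11 and 11.80 in mKO, against 9.97, 10.05 and 10.05 in Ctrl, a rise of 1.27 ± 0.18 (adjusted p = 6.05e-05). The rest of the 15 largest rises were Olfm1 (1.19), a secreted glycoprotein, Rgs2 (1.18), a regulator of G protein signalling, Fgf11 (1.13), an intracellular fibroblast growth factor homologue, Pla2g7 (1.11), which breaks down platelet-activating factor, and Agt (1.03), the precursor of angiotensin, together with Npas2 and Nfil3 above.

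Mylk4, a myosin light chain kinase, had the largest difference of any called gene. Mylk4 read 7.33, 8.81 and 7.45 in mKO, against 10.02, 10.75 and 10.79 in Ctrl, and fell by 2.66 ± 0.27 (SE), which is 6.31-fold, with an adjusted p of 6.09e-07. For Mylk4 and for Actn3 and Pvalb, the 2 genes with the lowest changes of the fast fibre list and chosen after their values were seen, mKO B was the highest mKO animal and Ctrl A the lowest Ctrl animal. Actn3, the alpha-actinin of fast fibres, read 8.45, 10.07 and 8.78 in mKO, against 9.26, 11.33 and 11.40 in Ctrl, and Pvalb, the calcium buffer of fast fibres, read 9.24, 10.68 and 8.97 in mKO, against 9.98, 11.27 and 11.51 in Ctrl. These overlapped between genotypes and were not called (changes of -1.56, adjusted p = 0.325, and -1.29, adjusted p = 0.42), and their part in the result for Mylk4 was not tested. Of the 16 fast fibre genes 10 had a positive change, the median was 0.02, and the summed linear signal was 97107 to 102455 in mKO, against 93077 to 107456 in Ctrl.

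The other large falls were smaller and tighter. Padi2, a peptidylarginine deiminase, read 8.96, 8.84 and 8.44 in mKO, against 10.26, 9.60 and 9.75 in Ctrl, and fell by 1.12 ± 0.19 (SE, adjusted p = 0.000628). Slc4a4, a sodium bicarbonate cotransporter, read 7.78, 7.65 and 7.46 in mKO, against 8.66, 8.54 and 8.67 in Ctrl, and fell by 0.99 ± 0.11 (adjusted p = 1.61e-06). Sgk1, a kinase induced by glucocorticoids, read 7.49, 8.02 and 7.89 in mKO, against 8.45, 8.64 and 8.76 in Ctrl, and fell by 0.82 ± 0.13 (adjusted p = 0.00018). None of these 3 genes overlapped between the genotypes. Also among the largest falls were Dkk2 (-1.01), a modulator of Wnt signalling, Ctxn3 (-0.92), Smyd2 (-0.87), a lysine methyltransferase, Scn2a (-0.82), a sodium channel, and Amy1 (-0.91), an amylase whose near-identical copies in the genome make its signal uncertain. Amy1 was not called without mKO A, mKO C or Ctrl B.

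**Figure D3:**
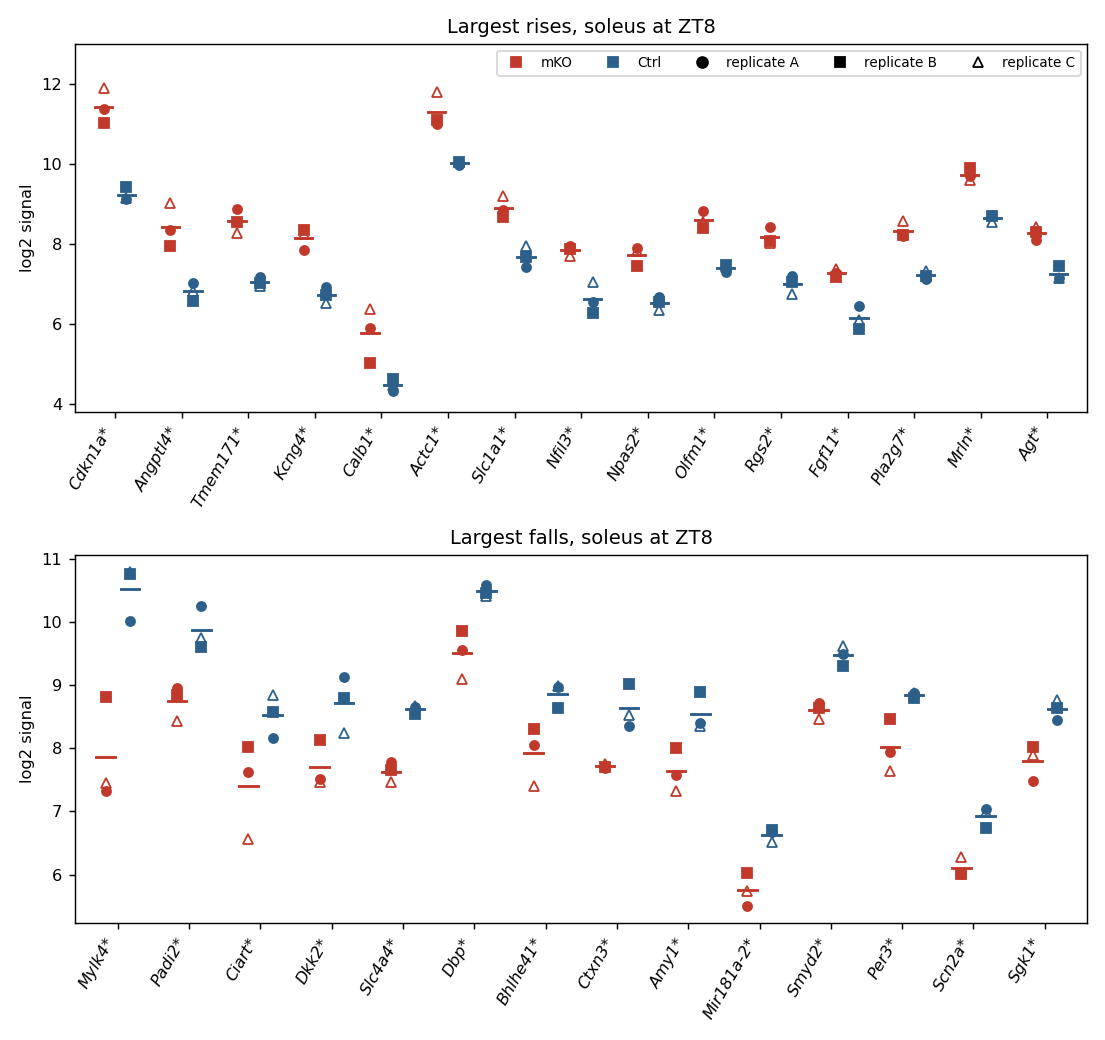
Log2 signal of the 15 largest called rises (top) and 14 of the 15 largest called falls (bottom) in SOL at ZT8, mKO in red to the left of Ctrl in blue; symbols are replicates A, B and C and bars are means. For each gene drawn the 3 mKO animals lie to one side of the 3 Ctrl animals, with the widest gap for Cdkn1a.

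One microRNA gene was among the 15 largest falls. Mir181a-2 read 5.50, 6.03 and 5.74 in mKO, against 6.68, 6.71 and 6.51 in Ctrl, and fell by 0.88 ± 0.16 (SE, adjusted p = 0.00215), with no overlap. The probes report its transcript, so the mature RNAs were not measured as such. Its products are shown from RefSeq on GRCm38.p6 (chr2:38852741-38852763 and chr2:38852785-38852806, plus strand), with the seed, bases 2 to 8, in capitals.
mmu-miR-181a-5p: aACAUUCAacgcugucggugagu
mmu-miR-181a-2-3p: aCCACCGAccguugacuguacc

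Genes of metabolism changed in small numbers and mostly by less than 2-fold. Each count of called list members from here on is to be read beside the 0.860% called over all genes. In the glucose uptake and glycogen list 1 of 22 measured genes was called, Tbc1d1, a Rab GTPase activating protein that holds back the glucose transporter GLUT4. Tbc1d1 read 7.47, 7.70 and 7.62 in mKO, against 8.16, 8.06 and 8.25 in Ctrl, and fell by 0.56 ± 0.10 (SE, adjusted p = 0.00225). Of the same list 8 genes had every mKO animal below every Ctrl animal, against 10.5% of all genes, and the median change was -0.03. None of 17 genes of glycolysis and lactate was called, with a lowest adjusted p of 0.103 by limma and 4 genes at an unadjusted p under 0.05, which 10.8% of all genes had. In the insulin and IGF list 2 of 28 genes were called, both higher: Irs1, the insulin receptor substrate, and Pik3ca, a catalytic subunit of PI3 kinase. Of that list 9 genes had every mKO animal above every Ctrl animal, against 8.37% of all genes, and 1 had every mKO animal below, against 10.5%. Irs1 read 9.27, 9.17 and 9.14 in mKO, against 8.69, 8.21 and 8.38 in Ctrl, a rise of 0.77 ± 0.15 (adjusted p = 0.00312), which was not called without Ctrl B, at 0.66. Pik3ca rose by 0.38 ± 0.09 (adjusted p = 0.0428) and was not called when any of the 6 animals was left out.

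Lipid genes moved in both directions. Of 26 lipid synthesis, storage and breakdown genes, 3 were called. Plin5, a coat protein of lipid droplets, read 8.64, 8.60 and 9.11 in mKO, against 8.07, 7.93 and 8.10 in Ctrl, a rise of 0.75 ± 0.13 (SE, adjusted p = 0.000739). Pnpla3, a member of the patatin-like lipase family, read 7.56, 7.95 and 7.66 in mKO, against 6.39, 7.09 and 6.86 in Ctrl, a rise of 0.94 ± 0.18 (adjusted p = 0.00347), and was not called without Ctrl A, at 0.75. Dgat2, which makes triglyceride, read 10.33, 10.84 and 10.53 in mKO, against 11.16, 11.31 and 11.36 in Ctrl, and fell by 0.71 ± 0.13 (adjusted p = 0.00111). The groups did not overlap for these 3 genes. None of 26 genes of fatty acid uptake and oxidation was called, with 4 at an unadjusted p under 0.05.

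Mitochondrial genes shifted little. None of 28 citrate cycle and respiratory chain genes was called, with a lowest adjusted p of 0.241, 5 genes at an unadjusted p under 0.05 and a median change of 0.08. Of these, 23 had a positive change and 10 had every mKO animal above every Ctrl animal, where 8.37% of all genes did. The largest was Ndufb8, a subunit of complex I, at 0.24 ± 0.08. In the pyruvate dehydrogenase list 1 of 12 genes was called, Pdhx, which anchors the E3 subunit in the complex. It read 9.09, 9.05 and 9.20 in mKO, against 8.55, 8.75 and 8.82 in Ctrl, a rise of 0.40 ± 0.09 (adjusted p = 0.0259), and was not called without mKO A, mKO C, Ctrl A or Ctrl B. Pdk4, the kinase that shuts the complex down, differed by 0.53 ± 0.18 (adjusted p = 0.229), and Pdp1, the opposing phosphatase, by -0.42 ± 0.11 (adjusted p = 0.0627). Of 23 amino acid enzymes, Gpt, alanine aminotransferase, rose by 0.61 ± 0.12 and Glul, glutamine synthetase, fell by 0.47 ± 0.11. Gpt was not called without mKO A, mKO C or Ctrl C, and Glul not without any of the 3 mKO animals or Ctrl B or Ctrl C. None of 10 polyamine genes was called, with 3 at an unadjusted p under 0.05.

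Genes of fibre structure and excitation were changed at single points. Of 14 slow fibre genes 1 was called, Casq2, the calsequestrin of slow muscle and heart, which rose by 0.49 ± 0.12 (SE, adjusted p = 0.0331) but was not called without mKO B, mKO C or any of the 3 Ctrl animals. Of the same 14 genes 4 had a positive change, the median was -0.03, and 5 had an unadjusted p under 0.05. Every mKO animal lay below every Ctrl animal for 4 of them, against 10.5% of all genes, and above for 3, against 8.37%. None of 16 fast fibre genes was called, with changes between -1.56 and 0.43 and 6 at an unadjusted p under 0.05 (10.8% of all genes). Mylk4 was the only one called of 17 light chain and kinase genes. Of 24 genes of reticulum calcium handling, Mrln, Casq2 and Calb1 were called, all higher. Of 21 channels and pumps, Kcng4 and Slc1a1 were higher, and Slc4a4 and Slc12a2, a chloride importer, lower. Slc12a2 read 9.25, 9.26 and 9.27 in mKO, against 9.68, 9.69 and 9.68 in Ctrl, and fell by 0.42 ± 0.08 (adjusted p = 0.00515), with each group close together.

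At the neuromuscular junction 2 of 21 genes were called. Chrnb1, the beta subunit of the acetylcholine receptor, read 8.91, 8.74 and 9.41 in mKO, against 8.06, 8.02 and 8.22 in Ctrl, a rise of 0.92 ± 0.14 (SE, adjusted p = 0.000124). Colq, the collagen tail of acetylcholinesterase, rose by 0.63 ± 0.16 (adjusted p = 0.0473), and was not called without mKO A, mKO B, Ctrl B or Ctrl C. Tead4, a TEAD factor of muscle differentiation, was called among 25 myogenic and fibre type factors. It read 8.92, 9.15 and 8.73 in mKO, against 7.97, 8.10 and 7.80 in Ctrl, a rise of 0.98 ± 0.12 (adjusted p = 7.37e-06). Of 23 ubiquitin ligase and protease genes, Asb2 (0.43) and Klhl30 (0.50) were higher, and Asb15 (-0.71) and Usp2 lower. Klhl30 was not called when any of the 6 animals was left out, and Asb2 not without mKO A, mKO B, Ctrl B or Ctrl C. None was called of 16 dystrophin complex genes, 26 genes of atrophy and autophagy, 16 heat shock genes or 21 immediate early genes, of which 4, 3, 1 and 3 had an unadjusted p under 0.05 in that order. Of 19 glucocorticoid-responsive genes Cdkn1a was higher, and Sgk1 and Glul lower.

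Markers of other cell types in muscle were measured with the same arrays, and none of the members of 9 such lists was called by limma. At an unadjusted p under 0.05 there were 3 endothelial, 2 macrophage, 1 satellite cell and 1 Schwann cell markers, and 0 of the other lists, where 10.8% of all genes had such a p. Of 11 endothelial markers 10 had a positive change and 7 had every mKO animal above every Ctrl animal, where 8.37% of all genes did, with a median of 0.18 at ZT8 and 0.02 over the other times. Their summed linear signal was 7962 to 8219 in mKO, against 6938 to 7400 in Ctrl. Kdr, the main VEGF receptor, differed most, by 0.44 ± 0.12 (SE, adjusted p = 0.0846). Of 10 macrophage markers 9 were positive and 4 had every mKO animal above every Ctrl animal, against the same 8.37% of all genes, with a summed signal of 1666 to 2368 in mKO, against 1491 to 1608 in Ctrl. The median macrophage change was 0.22 at ZT8 and -0.08 over the other times. Of 8 satellite cell markers 5 had every mKO animal above every Ctrl animal, again against 8.37%, with a summed signal of 3794 to 4034 in mKO, against 3497 to 3633 in Ctrl. Another 1 had every mKO animal below, against 10.5% of all genes. The median satellite cell change was 0.13 at ZT8 and 0.03 over the other times. The sums did not overlap for these 3 cell types. They did overlap for adipocytes (3622 to 4036 in mKO, 3489 to 3789 in Ctrl), fibroblasts and tendon (12585 to 15076 in mKO, 13121 to 13836 in Ctrl), Schwann cells (2438 to 2650 in mKO, 2609 to 2852 in Ctrl), smooth muscle and pericytes (16468 to 17144 in mKO, 16544 to 17455 in Ctrl), erythroid cells (287 to 381 in mKO, 286 to 379 in Ctrl) and lymphocytes and granulocytes (496 to 544 in mKO, 506 to 536 in Ctrl). The part of these cells in the gene lists above was not tested.

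The ZT8 differences were next set against SOL of the 30 other animals, taken at the other 5 times. The mean over those times includes ZT20, where genotype and identification series cannot be told apart. Of the 174 genes called at ZT8, 171 had the same sign in the mean difference over those times, and 154 were called in it with the same sign, where 1274 genes (6.29%) were called in all, 583 higher (2.88%) and 691 lower (3.41%). The sign was the same at each of the 5 times for 150 genes. Over all genes tested, the change at ZT8 and the mean change over the other times correlated at r = 0.30, and at 0.08 by rank (Spearman). Cdkn1a (2.27 over the other times) and Slc1a1 (1.42) were at least as large there as at ZT8, and Mylk4 changed by -2.27. The genes with the opposite sign were Angptl4, Fyb and Cftr, the last of which, like Fyb, is named here after its values were seen, and their mean changes over the other times were -0.00, -0.01 and 0.02. Called at ZT8 but not over the other times were 20 genes, among them Ciart (adjusted p = 0.054), Per2 (adjusted p = 0.0695), Mir181a-2 (adjusted p = 0.122) and Pdhx (adjusted p = 0.0612).

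The difference between ZT8 and the other times was tested in itself, and 0 genes were called (0%), with a lowest adjusted p of 0.44 by limma and 1703 genes at an unadjusted p under 0.05. Of the 174 genes 150 were larger at ZT8 than over the other times, but these were chosen for their size at ZT8. Angptl4 stood farthest out. In order of time from ZT0 to ZT20, its changes were -0.08, -0.31, 1.62, 0.18, -0.03 and 0.24. Its excess at ZT8 over the other times was 1.62 (unadjusted p = 2.95e-05, adjusted p = 0.44), and in a fit of all 72 arrays, which pools the spread of both muscles, the adjusted p was 0.0192. Its mean was highest at ZT8 in mKO (7.57 at ZT4, 8.43 at ZT8) and at ZT4 in Ctrl (7.87 at ZT4, 6.81 at ZT8). Other small p values of this test belonged to Slc16a9, of the monocarboxylate transporter family (0.98 at ZT8, 0.47 over the other times), Ypel2 (1.02 and 0.44), and Tmem171 (1.52 and 0.81). Trh, Mill1, Kcnq5, Sult1b1, Slc47a2, Kmt2b and Olfr617 also ranked among the 12 smallest p values, with changes at ZT8 between -0.34 and 0.34, none of them called.

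**Figure D4:**
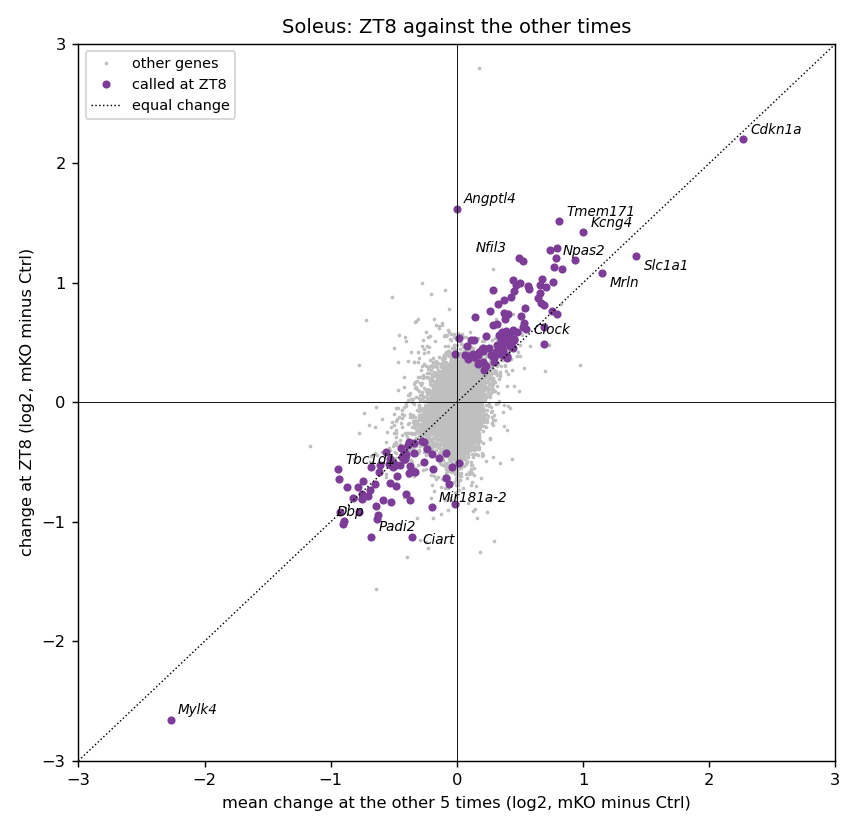
Change at ZT8 (log2, mKO minus Ctrl, vertical) against the mean change over the other 5 times (horizontal) in SOL for 20239 genes, with the 174 genes called at ZT8 in purple and equality dotted. Cdkn1a and Mylk4 lie near the line at both ends, and Angptl4 lies at 1.62 on the vertical and near 0 on the horizontal axis.

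The TA of the same 6 animals at ZT8 had 411 called genes (2.03%), 179 higher (0.884%) and 232 lower (1.15%) in mKO. Of the 174 genes called in SOL, 163 had the same sign in TA and 109 were called there with that sign. Both muscles come from the same mice, so these are not independent. Over all genes tested the changes in SOL and in TA correlated at r = 0.30. The difference between muscles was tested on the SOL minus TA difference within each animal, and 34 genes were called (0.168%). In 24 of these (0.119%) the mKO minus Ctrl change was more positive in SOL, and in 10 (0.0494%) more negative. These counts also changed with 1 animal left out, to 15 and 5 without mKO A and 18 and 10 without Ctrl C. More positive calls were 13, 13 and 12 without mKO B, Ctrl A and Ctrl B in that order. Of the 34 genes 25 were called in TA and not in SOL, 4 in both, 4 in SOL and not in TA, and 1 (Robo4) in neither.

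The 4 genes called in SOL and not in TA were Kcng4, Calb1, Denn2b and Dnase2b, of which Denn2b, Dnase2b and Robo4 are named after their values were seen. Kcng4 in TA read 8.48, 8.54 and 8.26 in mKO, against 8.70, 8.29 and 8.63 in Ctrl, so the SOL of mKO came near to the TA level of the same gene. Its SOL minus TA difference was 1.54 ± 0.19 (SE, adjusted p = 2.15e-05) and was called under each of 15 alternative settings. Denn2b changed by 0.65 in SOL and -0.05 in TA, and Dnase2b by -0.63 in SOL and 0.16 in TA. Mylk4 fell in both muscles, with 11.72, 11.98 and 11.91 in TA of mKO, against 13.00, 13.18 and 13.06 in TA of Ctrl. The fall was larger in SOL, with a SOL minus TA difference of -1.45 ± 0.27 (adjusted p = 0.0107). That difference was lost in 6 of 15 alternative settings, among them without mKO A, mKO C, Ctrl B or Ctrl C. Tmem171 rose in both and more in SOL, by 0.92 ± 0.19 (adjusted p = 0.0264), which was also lost in 6, among them without mKO A, mKO B or Ctrl C. The difference for Calb1, 1.19 ± 0.25 (adjusted p = 0.0305), was lost in 8 of 14.

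The clock genes of this test went less far down in SOL than in TA. Nr1d2 changed by -0.80 in SOL and -1.45 in TA, Per1 by -0.65 and -1.80, Bhlhe40 by -0.50 and -1.55, and Usp2 by -0.46 and -1.01. The SOL minus TA differences were 0.65 ± 0.13 (SE, adjusted p = 0.0221) for Nr1d2, 1.15 ± 0.17 (0.000409) for Per1, 1.05 ± 0.22 (0.0293) for Bhlhe40 and 0.54 ± 0.12 (0.0351) for Usp2. Of these 4, Per1 lost its call in 2 of 15 alternative settings and the others in 7 to 9. In SOL the mKO and Ctrl values of Per1 overlapped, with 8.24, 8.99 and 8.04 in mKO, against 8.92, 8.81 and 9.49 in Ctrl. In TA they lay far apart, with 7.34, 7.76 and 7.11 in mKO, against 9.05, 9.26 and 9.28 in Ctrl. For Arntl the changes were 0.40 in SOL and 0.26 in TA, neither called.

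Several genes with a large change in TA at ZT8 showed none that was called in SOL at that time. Prss55, a serine protease, changed by 0.48 in SOL and 2.71 in TA. Aebp1, an extracellular matrix protein, changed by -0.10 in SOL and -1.77 in TA, and Car3, the carbonic anhydrase of slow fibres, by -0.22 and -1.68. Car3 read 13.79, 13.77 and 13.49 in SOL of mKO, against 13.97, 13.86 and 13.87 in SOL of Ctrl. In TA it read 12.24, 12.23 and 11.86 in mKO, against 13.82, 13.76 and 13.78 in Ctrl. Mical2 changed by 0.33 in SOL and -1.08 in TA, and Itga4, an integrin, by 0.22 and -1.0, so the sign differed between the muscles, with no call in SOL. Ttll7, Tmem234, Dupd1 and Pim1, a kinase, differed in SOL by 0.42, 0.07, 0.09 and 0.44, none called, and rose in TA by 1.51, 1.10, 1.37 and 1.51. Sorbs3 and Nkain1 differed in SOL by -0.17 and -0.50, not called, and fell in TA by 1.33 and 1.64. The SOL values of other times can differ, as examples picked after their values were seen show. At ZT0 Aebp1 in SOL read 8.07, 7.99 and 7.99 in mKO, against 8.48, 8.75 and 8.91 in Ctrl. Dupd1 in SOL at ZT4 read 7.98, 8.03 and 8.00 in mKO, against 7.34, 7.73 and 7.42 in Ctrl. Car3 in SOL overlapped at ZT0, with 13.90, 13.80 and 13.73 in mKO, against 13.73, 13.87 and 13.83 in Ctrl.

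**Figure D5:**
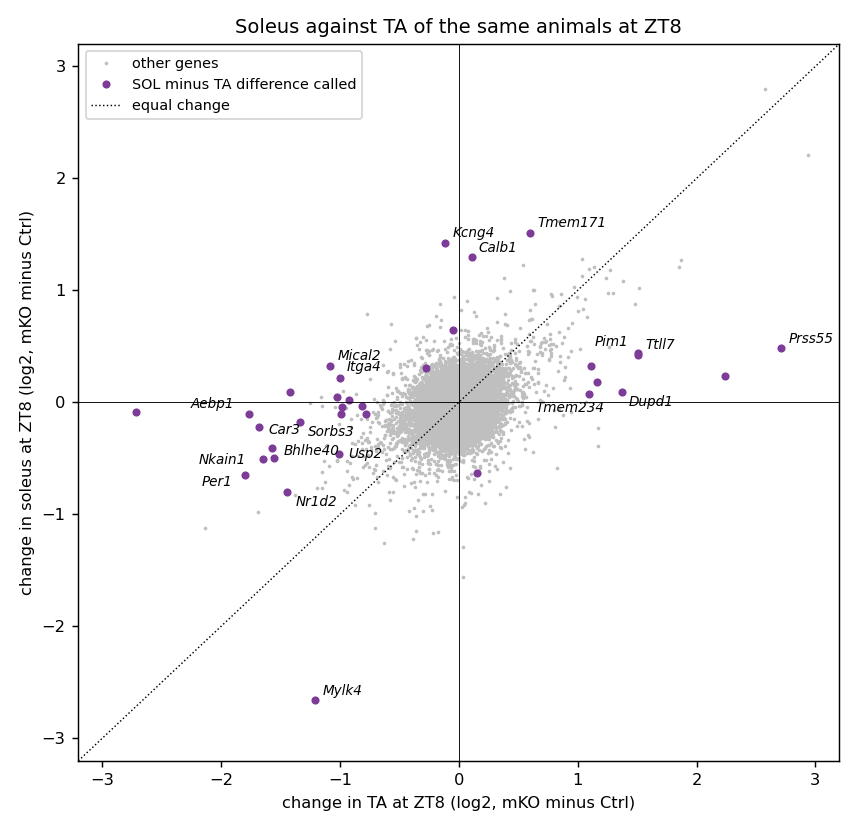
Change at ZT8 (log2, mKO minus Ctrl) in SOL (vertical) against TA of the same animals (horizontal) for 20239 genes, with the 34 genes whose SOL minus TA difference was called in purple and equality dotted. Kcng4 and Calb1 lie high on the vertical axis near 0 on the horizontal, while Car3, Aebp1 and Prss55 lie far out on the horizontal axis near 0 on the vertical.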

How the data were processed

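The authors deposited log2 signals that had been normalised with RMA (version not given in the sources used here), per the submitters' processing notes. RNA of SOL and TA from 36 mice, 18 per genotype, was measured on 72 arrays. Of 21225 probe sets 20239 paired with 1 gene symbol through the platform annotation and 986 stay unnamed here. No value was filtered or rescaled for the main results. The number of arrays limits the precision, with a median SE of 0.11 for a change at ZT8. Groups came from the sample titles.

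Genotype effects were fitted with lmFit and eBayes of limma 3.58.1 (R 4.3.3) on the 36 SOL arrays with 12 groups of genotype and time, which leaves 24 residual degrees of freedom from 3 arrays a group. Contrasts were mKO minus Ctrl at ZT8, the same over the other 5 times, and the difference of these. The SOL minus TA test used differences within animals. Benjamini-Hochberg adjustment ran over the 20239 genes, and 0.05 was the threshold. The fits were tested on simulated data.

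Named genes are those measured of the core clock list and the clock output list, the 15 largest called changes in each direction, the 12 smallest p values of each of the other 2 tests, and up to 3 called members per direction of each other list. Model names were counted without being printed. The 34 lists, 9 of them cell type markers, hold 599 genes, of which 550 were measured. The comparison, the members and the lists were chosen with earlier results of these data known. Replicate letters were not used as pairs, because the labels do not tie them to litters. Deviations of same-letter animals correlated at 0.178, -0.104 and 0.178 for A, B and C, and those of different-letter animals at -0.247 to 0.101. These values do not settle whether letters pair animals, and the letters were a block in an alternative setting.

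The 15 alternative settings included a fit of the 6 arrays alone, a fit of all 72, the replicate letters as a block and the identification series as a term. The setting within BM3 left out replicate C of both genotypes at ZT8 and kept all animals of the other times. The rest were genes above the median level, array medians subtracted, array weights, a spread that follows the level, and 6 fits that each leave out an animal. Promoter and microRNA sequences are from RefSeq tables on GRCm38.p6.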

Additional observations from a re-analysis of the deposited data

Results flagged for a closer look

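Differences between the muscles in the genotype effect at ZT8 were tested within animals, and those past the threshold are listed as SOL change minus TA change. The change was more positive in SOL for 24 genes and more negative for 10. Named among the more positive were Aebp1 (1.67), Kcng4 (1.54), Car3 (1.46), Mical2 (1.41), Itga4 (1.22), Calb1 (1.19), Sorbs3 (1.16), Per1 (1.15), Nkain1 (1.14), Bhlhe40 (1.05), Tmem171 (0.92), Nr1d2 (0.65) and Usp2 (0.54). Named among the more negative were Prss55 (-2.23), Mylk4 (-1.45), Dupd1 (-1.28), Ttll7 (-1.09), Pim1 (-1.07) and Tmem234 (-1.03). Of these 19 genes, 9 kept their call under each alternative setting.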

How the results depend on the processing

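The count of genes called at ZT8 in SOL was 106 higher and 68 lower, and moved with the animals and the spread used. It was 51 and 27 in a fit of the 6 arrays alone, 45 and 27 within BM3, and 210 and 146 with array weights. Leaving out 1 animal at a time gave 59 to 83 higher and 43 to 76 lower. The SOL minus TA count, 24 and 10, was 10 and 3 with the 6 animals alone, 13 and 6 within BM3, and 55 and 27 with array weights, and 12 to 18 and 5 to 10 with 1 animal left out. The difference from the other times had 0 calls, and 1 (Angptl4) in the fit of 72 arrays. It could not be had from the 6 arrays alone. With the replicate block the counts at ZT8 were 107 and 75, and of the named called genes Klhl30 lost its call. Of 54 named genes called at ZT8, 27 kept the call under each alternative, 17 lost it in some fit that left out 1 animal, and 0 changed sign. In the fit of the 6 arrays alone 25 lost the call, and within BM3 22 did. Lost in the fit of the 6 arrays were, among others, Per3, Tef, Tbc1d1, Plin5, Dgat2, Slc12a2, Chrnb1, Sgk1 and Dkk2. Among genes not called, the sign turned for Cry2 (0.00052) and Tspo2 (-0.063) within BM3. With 1 animal left out the range crossed 0 for Cry2 (-0.24 to 0.051), Tspo2 (-0.085 to 0.17), Tmem234 (-0.0041 to 0.12) and Dupd1 (-0.036 to 0.19), and in the muscle difference for Trh (-0.31 to 0.024) and Olfr617 (-0.28 to 0.015). The cause of these moves was not tested.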
